A study of Mus musculus with 60 samples.

Results

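The genes described here carry cells through G2 and mitosis: the cyclins and kinases that start division, the checkpoint that holds it, the kinetochore and spindle proteins that move chromosomes and the proteins that part the daughter cells. They were taken by name, 42 gene symbols in all, from an array study of mouse embryonic stem cells exposed to drugs, and each gene was read from its brightest probe set that is annotated to that symbol alone. Of these, 41 had such a probe set among the 21789 single-symbol probe sets (19938 genes) tested. Ccnb1 had none and was not analysed here. Top2a had 2 such probe sets, with means over all arrays of 11.88 and 5.01, and the brighter was used.

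R1, an established mouse embryonic stem cell line, was grown on feeder cells, freed of them, and exposed for 6 h while attached and undifferentiated. Total RNA was measured on 60 Affymetrix arrays, 3 for each of 20 groups. The labels do not say whether the 3 arrays of a group come from separate cultures, so the tests measure the spread between arrays, which may be technical. The control group received 0.1% DMSO alone, and every compound was also given in 0.1% DMSO. The 10 compounds that the study classes as teratogens were penicillamine (1 mM), thalidomide (0.35 mM), azacytidine, retinoic acid (all-trans, 0.024 mM), dexamethazone (0.1 mM), dimethadione (1 mM), fluconazole (1 mM), topiramate (1 mM), methotrexate (0.028 µM) and VPA (1 mM). The 9 classed as non-teratogens were chlorthalidone (1 mM), clozapine (0.028 mM), glybenclamide (0.37 mM), hydrochlorothiazide (1 mM), loratadine (0.043 mM), metoclopramide (0.17 mM), ondansetron (0.054 mM), paracetamol (1 mM) and sulfasalazine (1 mM). For azacytidine the titles give 0.23 µM and the characteristics 23 µM. The titles of 8 arrays carry a letter b whose meaning is not given, retinoic acid array 2 and dexamethazone array 3 among them. Each dose was the lowest of 3 limits (slight loss of viability, solubility, or 1 mM), so doses are not matched between compounds.

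Mitosis is switched on by cyclin-dependent kinase 1 bound to cyclins A and B, once CDC25 phosphatases remove its inhibitory phosphates, and it is switched off when the anaphase-promoting complex, with its activator Cdc20, marks the cyclins for destruction. Most of the genes are transcribed periodically, low in G1 and high in G2 and M, under repressor and activator complexes (DREAM, and B-Myb and FoxM1 with the MuvB core) that act through the CCAAT box and the cell cycle genes homology region, or CHR, of their promoters. Embryonic stem cells divide fast with a short G1, so a large part of a culture is always in S, G2 or M. In RNA from whole cultures, fewer cells in G2 and M and less of a transcript per cell cannot be told apart.

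The promoters show what the genes share apart from their behaviour on the arrays. RefSeq promoter windows (GRCm38.p6, 250 bases before to 50 after the transcription start) were matched for 34 of the 41 genes, 37 windows in all. CCAAT on either strand was in 81.1% of these windows against 37.4% of all 32851 windows of the same length, and at least 2 copies were in 51.4% against 11.7%. The CHR letters TTTGAA, on either strand, were in 75.7% against 17.9%, and the variant TTCGAA in 10.8% against 1.56%. Both a CCAAT and a CHR (TTTGAA or TTCGAA) were in 70.3% of the windows of these genes against 7.52% of all windows. A window counts once for a motif however many matches it holds, and a match is a run of letters, not a measured binding site. Printed here are the 150 bases before the start of 5 genes: Cdk1, Cdc20, Prc1 and Kif11, whose CHR and CCAAT letters lie before the start, and Nusap1, which has neither in its window. Capitals mark the CCAAT box, which reads ATTGG on the other strand. They also mark the CHR, TTTGAA, whose other strand reads TTCAAA. The regions are chr10:69352913-69353062 on the minus strand for Cdk1, chr4:118437344-118437493 on the minus strand for Cdc20, chr7:80294326-80294475 on the plus strand for Prc1, chr19:37376232-37376381 on the plus strand for Kif11 and chr2:119618148-119618297 on the plus strand for Nusap1.
Cdk1: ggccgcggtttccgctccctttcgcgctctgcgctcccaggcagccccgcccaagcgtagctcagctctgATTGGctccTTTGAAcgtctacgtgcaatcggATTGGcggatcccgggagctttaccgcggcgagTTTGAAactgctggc
Cdc20: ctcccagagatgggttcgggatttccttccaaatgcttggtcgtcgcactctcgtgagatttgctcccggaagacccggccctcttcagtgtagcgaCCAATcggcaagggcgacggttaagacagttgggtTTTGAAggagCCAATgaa
Prc1: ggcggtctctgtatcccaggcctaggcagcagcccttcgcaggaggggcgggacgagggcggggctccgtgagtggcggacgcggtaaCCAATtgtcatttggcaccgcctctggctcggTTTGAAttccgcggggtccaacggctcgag
Kif11: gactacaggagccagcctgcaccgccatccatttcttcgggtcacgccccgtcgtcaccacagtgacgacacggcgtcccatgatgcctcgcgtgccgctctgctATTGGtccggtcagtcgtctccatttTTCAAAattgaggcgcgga
Nusap1: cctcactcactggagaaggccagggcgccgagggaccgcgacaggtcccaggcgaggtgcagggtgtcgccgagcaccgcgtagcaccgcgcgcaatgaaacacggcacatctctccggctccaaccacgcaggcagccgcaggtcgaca
In the printed stretches the CHR letters begin at position -15 in Cdk1, -18 in Cdc20, -30 in Prc1 and -19 in Kif11, where -1 is the last base before the start. The nearest CCAAT or ATTGG upstream of it begins at -48, -53, -62 and -45 in the same order. Cdk1 holds a second CHR match at -71, and Cdc20 a second CCAAT at -8. Aurka and Plk1 have their CHR match downstream of the start, at positions 33 and 31, outside the printed part.

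All 41 genes were well expressed in these cells. Mean signals over the 60 arrays, on the deposited log2 scale, ran from 8.92 for Cdc25c to 12.67 for Ccna2, which is the 63.4th to the 98.5th percentile of the probe sets tested. Array medians over all probe sets lay between 7.58 and 7.79. The spread of single arrays around their group mean had a median of 0.07 over the genes, from 0.04 for Bub1 to 0.12 for Kif20b. Embryonic stem cell markers averaged 11.89 to 12.29 per array and fibroblast markers, a check for feeder cells, 8.41 to 8.73. The interquartile range of all signals was lowest on hydrochlorothiazide arrays 1 and 2 and dexamethazone array 3 (2.97 at the least, against 3.32 at the most over all arrays).

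Paracetamol stood apart. The mean of the 41 genes was 10.72, 10.71 and 10.76 on its 3 arrays, and 11.01, 10.93 and 11.03 on the DMSO arrays. Every one of the other 57 arrays was at 10.92 or above, so the paracetamol arrays lay below all of them. The next groups from the bottom were glybenclamide (10.94 ± 0.01, SD, n = 3), topiramate (10.95 ± 0.03), hydrochlorothiazide (10.96 ± 0.05) and VPA (10.97 ± 0.01). At the top were penicillamine (11.06 ± 0.08), dimethadione (11.06 ± 0.04) and retinoic acid (11.09 ± 0.06). DMSO, at 10.99 ± 0.05, was near the middle. Above paracetamol, each step in this order was smaller than the larger SD of the groups on either side. Of the 41 genes, 35 had their lowest group mean with paracetamol, 4 with dexamethazone, 1 with glybenclamide and 1 with VPA. The highest group mean fell to retinoic acid for 11 genes, loratadine for 8, penicillamine for 6 and dexamethazone for 5.

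**Figure D1:**
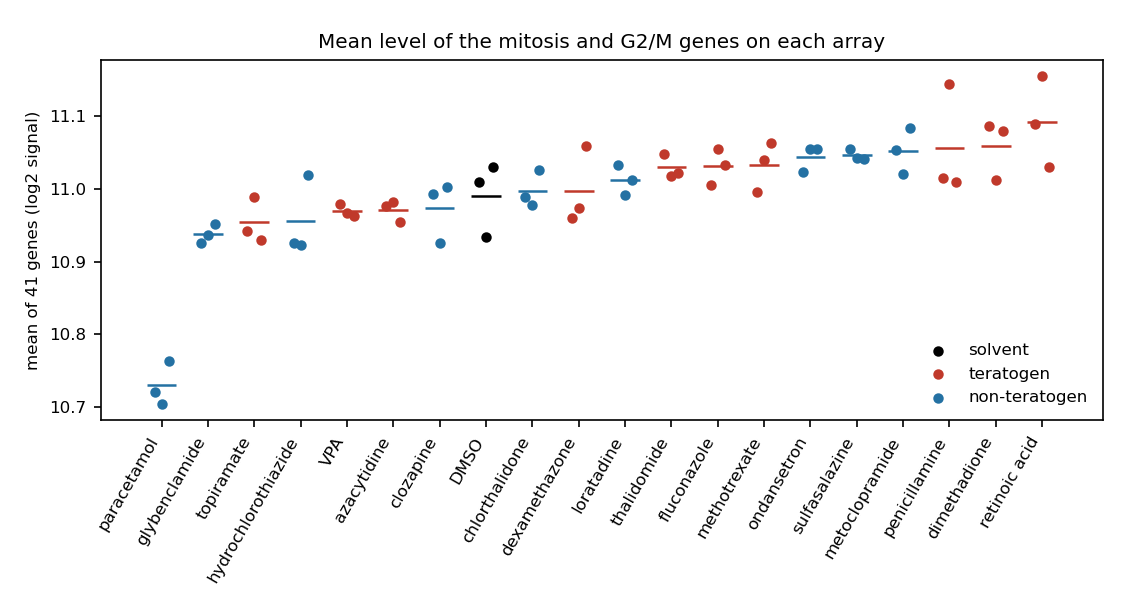
Mean log2 signal of the 41 mitosis and G2/M genes (y axis) on each of the 60 arrays, by treatment group (x axis, ordered by group mean); points are arrays, lines are means of 3 and colours give the study's class of each compound. The 3 paracetamol arrays sit between 10.71 and 10.76, below every other array.

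With paracetamol, 28 of the 41 genes fell and none rose, at an adjusted p under 0.05 in a limma model of all arrays with Benjamini-Hochberg adjustment over all probe sets. Over all probe sets tested, 4.15% fell and 4.61% rose. The median difference of the 41 genes was -0.25 on the log2 scale against 0.01 over all probe sets, and 37 of the 41 were negative. Paracetamol is a pain and fever medicine, classed here as a non-teratogen. The 3 paracetamol arrays lay below all 3 DMSO arrays for 34 genes, a count for which no share over all probe sets was taken. Among the 28 that fell, Kif20b alone had overlapping ranges. Leaving out single arrays gave 21 to 29 called genes. All contrasts against DMSO in this report share the same 3 control arrays, so paracetamol was also set against each of the other 18 compounds, an alternative chosen after seeing the data: 23 genes fell against azacytidine or hydrochlorothiazide (3.6% and 3.83% of all probe sets fell) and up to 34 against ondansetron (7.95%). In 7 of the 18 contrasts 1 to 3 genes rose, at most 3 against loratadine (13.1% of all probe sets rose); Ckap2 rose in 6 contrasts, Aurkb in 3 and Gtse1 in 2. In all 18 of these contrasts the same 18 genes fell: Anln, Aspm, Aurka, Bub1b, Cdca8, Cenpa, Cenpf, Ect2, Hmmr, Incenp, Kif11, Kif20a, Kif2c, Nusap1, Plk1, Prc1, Racgap1 and Tpx2. The 18 contrasts share the same 3 paracetamol arrays, so they are not independent of each other.

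All 3 genes of the role group of mitotic kinases fell. Aurkb, Bub1, Ttk and Cdk1, kinases of mitosis placed in other role groups, were not called. Aurora A (Aurka), which matures centrosomes and builds the spindle, read 10.94, 10.91 and 10.86 with paracetamol and 11.41, 11.36 and 11.50 with DMSO. The groups were far apart, and the difference of -0.53 ± 0.05 (log2, SE; adjusted p = 4.48e-10) puts Aurka at 69.5% of its DMSO signal. Polo-like kinase 1 (Plk1), which drives mitotic entry, spindle assembly and exit, read 12.09, 12.08 and 12.08 against 12.57, 12.59 and 12.53. Its 3 treated arrays were almost equal, and it fell by 0.48 ± 0.06 (adjusted p = 1.78e-08). Nek2, a kinase that separates centrosomes, fell less, by 0.21 ± 0.07 (adjusted p = 0.0498), just inside the threshold.

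Most proteins of the spindle also fell. Nusap1, which bundles spindle microtubules, read 10.64, 10.57 and 10.57 with paracetamol and 11.28, 10.99 and 11.20 with DMSO. Though the second DMSO array was lower than its neighbours, no treated array reached it; the difference was -0.56 ± 0.08 (adjusted p = 1.54e-06), which leaves 67.8% of the DMSO signal and is the largest of the 41. Aspm, a spindle pole protein, read 9.48, 9.36 and 9.49 against 9.92, 9.87 and 9.98, a separated pair of ranges with a difference of -0.48 ± 0.08 (adjusted p = 4.08e-05). Tpx2, the activator of Aurora A on the spindle, fell by 0.46 ± 0.06 and Hmmr, a spindle pole and microtubule protein, by 0.46 ± 0.07. The motors fell by less: Kif11, the kinesin that pushes the poles apart, by 0.30, Kif2c, which takes microtubule ends apart, by 0.30 and Kif20b by 0.32. In all, 7 of the 10 genes of spindle motors and microtubule proteins fell. The other 3 did not pass the test: Dlgap5 differed by -0.15 (adjusted p = 0.239), Gtse1 by 0.01 (0.983) and Ckap2 by 0.13 (0.324), the last with all 3 treated arrays above DMSO.

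All 6 genes of the central spindle and cytokinesis fell. Racgap1 and Kif23 form centralspindlin, the complex that marks the division plane; they fell by 0.40 ± 0.05 and 0.33 ± 0.06. Ect2, the exchange factor that centralspindlin recruits to activate RhoA, fell by 0.37 ± 0.06. Prc1, which bundles the midzone microtubules, fell by 0.29 ± 0.06, the scaffold anillin (Anln) by 0.32 ± 0.05 and the kinesin Kif20a by 0.24 ± 0.05. The largest adjusted p among these was that of Prc1, 0.000757.

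At the centromere and kinetochore, 3 of 5 genes fell. Cenpf, a kinetochore protein that accumulates in G2, read 9.32, 9.24 and 9.50 with paracetamol and 9.87, 9.76 and 9.99 with DMSO. The ranges did not meet, and the difference was -0.52 ± 0.08 (adjusted p = 1.49e-05). Cenpa, the histone that defines the centromere, fell by 0.37 ± 0.05 and Cenpe, the kinetochore motor, by 0.36 ± 0.08. The Ndc80 complex subunits Ndc80 (-0.25, adjusted p = 0.096) and Nuf2 (-0.11, 0.394) did not pass. In the chromosomal passenger complex, which corrects faulty attachments, borealin (Cdca8) fell by 0.40 ± 0.08, Incenp by 0.35 ± 0.06 and survivin (Birc5) by 0.21 ± 0.07, while its kinase Aurkb differed by 0.05 ± 0.06 (adjusted p = 0.734). So 3 of the 4 subunits fell, and the catalytic one was not called.

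Regulators of exit and the checkpoint were divided. Cdc20, the activator of the anaphase-promoting complex, read 11.62, 11.60 and 11.54 with paracetamol and 11.92, 11.90 and 11.98 with DMSO. The groups were separated, with a difference of -0.35 ± 0.05 (adjusted p = 6.80e-06). Ube2c, the ubiquitin-conjugating enzyme of that complex, fell by 0.19 and Bub1b, the checkpoint protein BubR1, by 0.20. The checkpoint kinases Bub1 (-0.05, adjusted p = 0.659) and Ttk (-0.17, 0.212) and the mitotic entry factor Cdca3 (-0.16, 0.162) were not called.

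Cyclins, Cdk1 and the CDC25 phosphatases had the smallest median difference of the larger role groups, -0.15. Cdk1 itself read 11.93, 11.93 and 11.91 with paracetamol and 12.09, 11.97 and 12.14 with DMSO. All treated arrays were below all control arrays, yet the difference of -0.15 ± 0.06 was not called (adjusted p = 0.108). Cyclin B2 (Ccnb2) fell by 0.17 ± 0.05 and the phosphatase Cdc25c by 0.19 ± 0.06, while cyclin A2 (Ccna2, -0.07, adjusted p = 0.45) and Cdc25b (0.00, 0.99) were not called. Topoisomerase II alpha (Top2a), which untangles sister chromosomes, read 11.64, 11.55 and 11.74 against 11.87, 11.75 and 11.89; it fell by 0.19 ± 0.06 (adjusted p = 0.0296), with ranges that nearly touched. Mki67, the proliferation antigen that coats mitotic chromosomes, read 10.67, 10.70 and 10.79 against 10.93, 10.84 and 11.09. Its ranges were separate too, but its difference of -0.23 ± 0.08 missed the threshold (adjusted p = 0.0549).

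**Figure D2:**
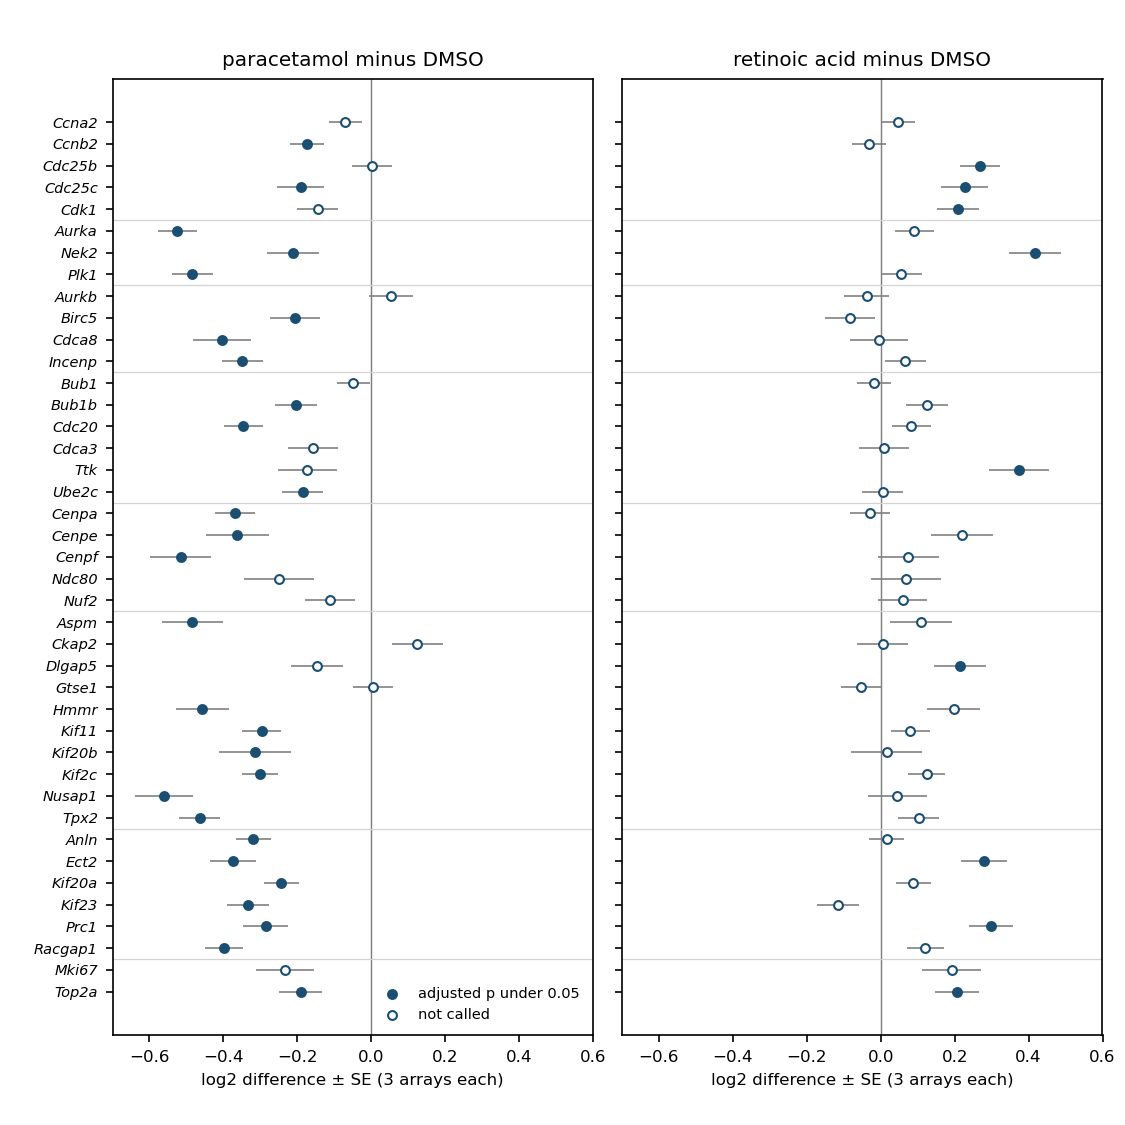
Log2 difference from DMSO (x axis) of each of the 41 genes (y axis, grouped by role from cyclins at the top to chromosome structure at the bottom) with paracetamol, left, and retinoic acid, right; bars are SE and filled points passed an adjusted p of 0.05. With paracetamol 28 points are filled, all left of 0, and with retinoic acid 9 are filled, all right of 0.

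Other genes of division, from lists set for this work, also leaned down with paracetamol, in smaller shares. Over all probe sets 4.15% fell and 4.61% rose. Of 29 other spindle and cytokinesis genes, 12 fell and none rose (median -0.16). The largest falls were those of Depdc1a (-0.50 ± 0.09) and of the kinesins Kif18a (-0.48 ± 0.08) and Kif4 (-0.46 ± 0.09). Of 17 genes of the anaphase-promoting complex, its activator and inhibitors and its targets, 6 fell and none rose (median -0.10). They were led by Fzr1, the activator that follows Cdc20 (-0.35 ± 0.07), separase (Espl1, -0.30 ± 0.06) and the inhibitor Fbxo5 (-0.30 ± 0.08). Among 18 cohesin and condensin genes, 3 fell and none rose: Stag2 (-0.33), Wapl (-0.32) and Rad21 (-0.27). The kinetochore and checkpoint genes outside the 41 were mixed, with 4 of 36 falling and 2 rising (Cenpl -0.42, Oip5 -0.25, Cenpm 0.23). Of 22 genes that control mitotic entry, Pbk (-0.37), Cks2 (-0.33) and Wee1 (-0.21) fell and Sfn, a checkpoint adaptor, rose by 0.32. The transcription factors of the G2/M programme in that list, looked at after the other values were known, were near 0: Foxm1 differed by -0.03 (adjusted p = 0.885) and Mybl2 by -0.03 (0.827).

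Genes of the earlier part of the cycle gave a different count. Of 49 genes of G1/S and DNA replication, 5 rose and 2 fell with paracetamol (4.61% and 4.15% of all probe sets), with a median of 0.03. The largest changes were the fall of the G1 kinase Cdk6 (-0.38 ± 0.05) and the rises of cyclin E2 (Ccne2, 0.30 ± 0.10) and of the ribonucleotide reductase subunit Rrm2 (0.27 ± 0.05). Embryonic stem cell markers moved with the mitotic genes: 6 of 10 fell, led by Zfp42 (-0.38 ± 0.06), Esrrb (-0.28 ± 0.07) and Nanog (-0.28 ± 0.05), and their mean was 12.01 on each paracetamol array against 12.17 to 12.20 on the DMSO arrays. The part of this in the fall of the mitotic genes was not tested. Fibroblast markers had no called gene among 9 and averaged 8.47 to 8.54 against 8.50 to 8.58.

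**Figure D3:**
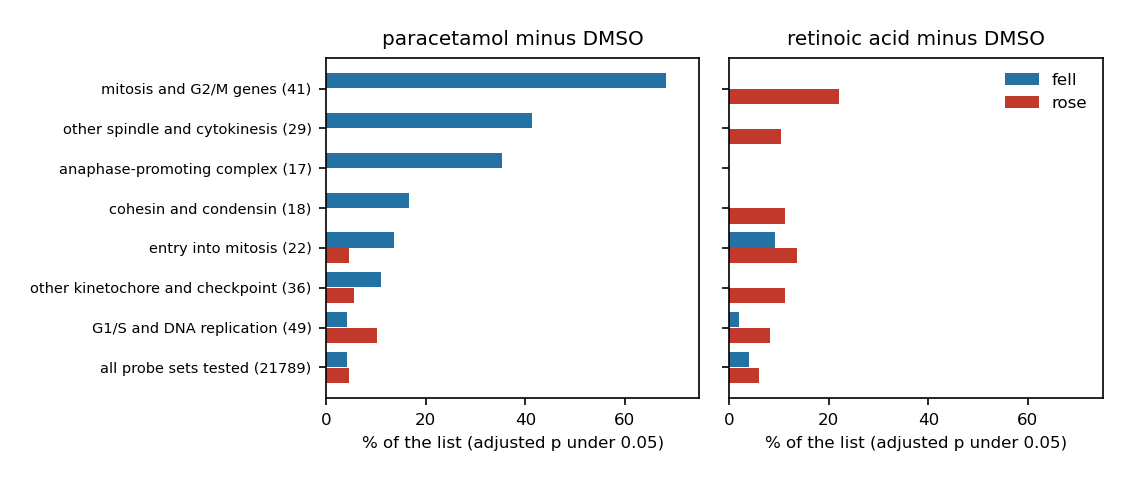
Share of each gene list (y axis, number of genes in brackets) that fell (blue) or rose (red) at an adjusted p under 0.05, in percent (x axis), with paracetamol, left, and retinoic acid, right. With paracetamol 68.3% of the 41 mitosis and G2/M genes fell, against 41.4% of other spindle and cytokinesis genes and 4.15% of all probe sets.

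Promoter letters were also counted by outcome, as a description of few windows. TTTGAA was in 84.6% of 26 windows of genes that fell with paracetamol and in 54.5% of 11 windows of genes not called; with the variant TTCGAA included the shares were 84.6% and 72.7%. CCAAT was in 80.8% and 81.8%. Nusap1, which fell most, has neither in the window printed above, and Cdk1, with 2 CHR matches there, was not called.

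Retinoic acid gave the opposite picture, and a smaller one. Of the 41 genes, 9 rose and none fell, where 5.9% of all probe sets rose and 3.92% fell; the median difference was 0.08 against -0.03 over all probe sets. All-trans retinoic acid is a vitamin A derivative that acts through nuclear receptors and makes embryonic stem cells differentiate. Nek2 read 10.83, 10.84 and 10.64 with retinoic acid and 10.39, 10.25 and 10.42 with DMSO. It rose by 0.42 ± 0.07 (adjusted p = 1.80e-05), to 134% of the DMSO signal, and no other group reached its level. Ttk (Mps1), the kinase that starts checkpoint signalling, read 10.53, 10.88 and 10.52 against 10.35, 10.17 and 10.29; the second array was far above the other treated arrays, and the rise was 0.37 ± 0.08 (adjusted p = 0.000734). Prc1 read 10.79, 10.79 and 10.75 against 10.50, 10.46 and 10.48, a tight and separate pair of groups, and rose by 0.30 ± 0.06 (adjusted p = 0.000295). Ect2 read 12.22, 12.35 and 12.18 against 12.05, 11.88 and 11.98 and rose by 0.28 ± 0.06 (adjusted p = 0.00135). All 9 genes that rose had treated arrays entirely above the DMSO arrays. In all, 15 of the 41 genes lay entirely above DMSO and 2 entirely below. No share over all probe sets was taken for these counts.

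The other 5 genes that rose with retinoic acid were Cdc25b, Cdc25c, Cdk1, Top2a and Dlgap5. Both CDC25 phosphatases rose, Cdc25b by 0.27 ± 0.05 and Cdc25c by 0.23 ± 0.06, and so did their substrate Cdk1, which read 12.36, 12.23 and 12.23 and rose by 0.21 ± 0.06 (adjusted p = 0.00948). Top2a read 11.99, 12.18 and 11.96 and rose by 0.21 ± 0.06 (adjusted p = 0.0156), and the spindle protein Dlgap5 rose by 0.22 ± 0.07. Thus 3 of 5 genes of the cyclin and Cdk1 module rose, where 2 of 5 fell with paracetamol. Ect2, Nek2, Prc1, Cdc25c and Top2a, which rose with retinoic acid, were among the genes that fell with paracetamol. Others that fell with paracetamol were not called here: Aurka read 11.56, 11.54 and 11.45 (0.09 ± 0.05, adjusted p = 0.292), Plk1 12.60, 12.66 and 12.61 (0.06 ± 0.06, 0.567) and Cdc20 11.99, 12.03 and 12.03 (0.08 ± 0.05, 0.343). Mki67 spanned 11.08, 11.44 and 10.92, overlapped DMSO and was not called (0.19 ± 0.08, adjusted p = 0.122).

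The size of the retinoic acid result depended on what it was compared with. Leaving out DMSO array 2 left 5 genes, and a model of its 3 arrays and the 3 DMSO arrays alone left 2. Against the mean of the other 18 compounds 18 of the 41 rose and none fell (8.62% and 8.89% of all probe sets). In the direct contrast of retinoic acid with dexamethazone 13 rose and 1 fell (16.5% and 15.3% of all probe sets). Among other lists, 4 of 36 kinetochore and checkpoint genes rose with retinoic acid against DMSO (Cenpm 0.28, Ska2 0.22, Kntc1 0.21), as did 3 of 29 spindle and cytokinesis genes (Iqgap3 0.41, Pimreg 0.29, Cdca2 0.19) and 4 of 49 G1/S genes (Rpa1 0.38, Slbp 0.23, Mcm10 0.20), of which 1, Ccnd1, fell by 0.15. In that contrast 5.9% of all probe sets rose and 3.92% fell, and the G1/S share that rose lay nearest to this. Entry control was divided: Gadd45a (0.30), Lin9 (0.27) and Mastl rose, and Sfn (-0.25) and Cks1b fell. None of 17 anaphase-promoting complex genes passed the test. At an unadjusted p under 0.05 there were 2, with no share of all probe sets given beside them. Gata6, an early endoderm factor, rose by 0.87 ± 0.09 and Tfap2c, a trophoblast and germ cell factor, by 0.76 ± 0.06 on the same arrays. The other endoderm and trophoblast markers of those lists are not given here, so these values stand for single genes. Of 10 embryonic stem cell markers 1 changed (Nanog, 0.18). Among 9 fibroblast markers Pdgfrb rose by 0.29 and Thy1 fell by 0.26. The part of these changes in the result was not tested.

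VPA changed single genes in both directions. VPA (valproic acid) is an antiepileptic drug that also inhibits histone deacetylases, and it changed more probe sets than any other compound here: 15.5% rose and 11% fell. Of the 41 genes, 3 rose and 5 fell, shares of 7.32% and 12.2%, with a median of -0.04. The share that rose was below that of all probe sets, and the share that fell was near it. Cdc20 read 11.65, 11.59 and 11.54 with VPA, about where paracetamol put it, and fell by 0.34 ± 0.05 (adjusted p = 1e-06). Gtse1, a microtubule protein that also restrains p53 in G2, read 11.49, 11.42 and 11.41 against 11.81, 11.75 and 11.80 with DMSO. It was lower with VPA than in any other group and fell by 0.35 ± 0.06 (adjusted p = 1.62e-06), where paracetamol had left it at the DMSO level. Kif23 fell by 0.19 ± 0.06, Plk1 (12.41, 12.39 and 12.41) by 0.16 ± 0.06 and Aurka (11.32, 11.21 and 11.28) by 0.16 ± 0.05.

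The 3 genes that rose with VPA were Cdc25b, Cdc25c and Cdca3. Cdc25b read 9.45, 9.40 and 9.34 against 9.02, 9.04 and 9.06 and rose by 0.35 ± 0.05 (adjusted p = 6.85e-07). Cdc25c read 9.20, 9.16 and 9.23 against 8.82, 8.78 and 8.93 and rose by 0.35 ± 0.06 (adjusted p = 1.71e-05). Cdca3, an F-box-like protein that helps destroy the Cdk1 inhibitor Wee1, read 10.87, 10.88 and 10.85 against 10.61, 10.55 and 10.69 and rose by 0.25 ± 0.07. None of the 3 overlapped DMSO. In all, 5 of the genes lay entirely above DMSO and 10 entirely below, counts for which no share over all probe sets was taken. Cdk1 (12.15, 12.15 and 12.11), Top2a (11.82, 11.73 and 11.77) and Mki67 (10.93, 10.92 and 10.90) were not called. Embryonic stem cell markers were lower here as well, 6 of 10 falling, with a mean of 11.89 to 11.90 per array; their part was not tested.

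Loratadine, an antihistamine classed as a non-teratogen, raised 5 of the 41 genes and lowered 2. Over all probe sets 10.9% rose and 8.26% fell. The share of the 41 that rose was near that of all probe sets, and the share that fell was smaller. Cdc25c read 9.26, 9.17 and 9.23, the highest of all groups, and rose by 0.37 ± 0.06 (adjusted p = 1.35e-05). Hmmr read 10.86, 10.69 and 10.73 against 10.52, 10.34 and 10.39 and rose by 0.35 ± 0.07 (adjusted p = 0.000344). Both were above every DMSO array. Prc1 (10.75, 10.79 and 10.82) rose by 0.31 ± 0.06, Cdca3 (10.80, 10.95 and 10.88) by 0.26 ± 0.07 and Nusap1 by 0.24 ± 0.08. Gtse1 (11.51, 11.62 and 11.56) fell by 0.22 ± 0.06 and Aurkb (11.47, 11.49 and 11.45), the passenger complex kinase, by 0.21 ± 0.06. Aurka (11.47, 11.32 and 11.38), Plk1 (12.44, 12.49 and 12.51), Cdc20 (11.81, 11.86 and 11.86), Cdk1 (12.10, 12.03 and 12.08), Top2a (12.03, 11.95 and 11.97) and Mki67 (10.88, 10.83 and 10.80) were not called with loratadine.

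**Figure D4:**
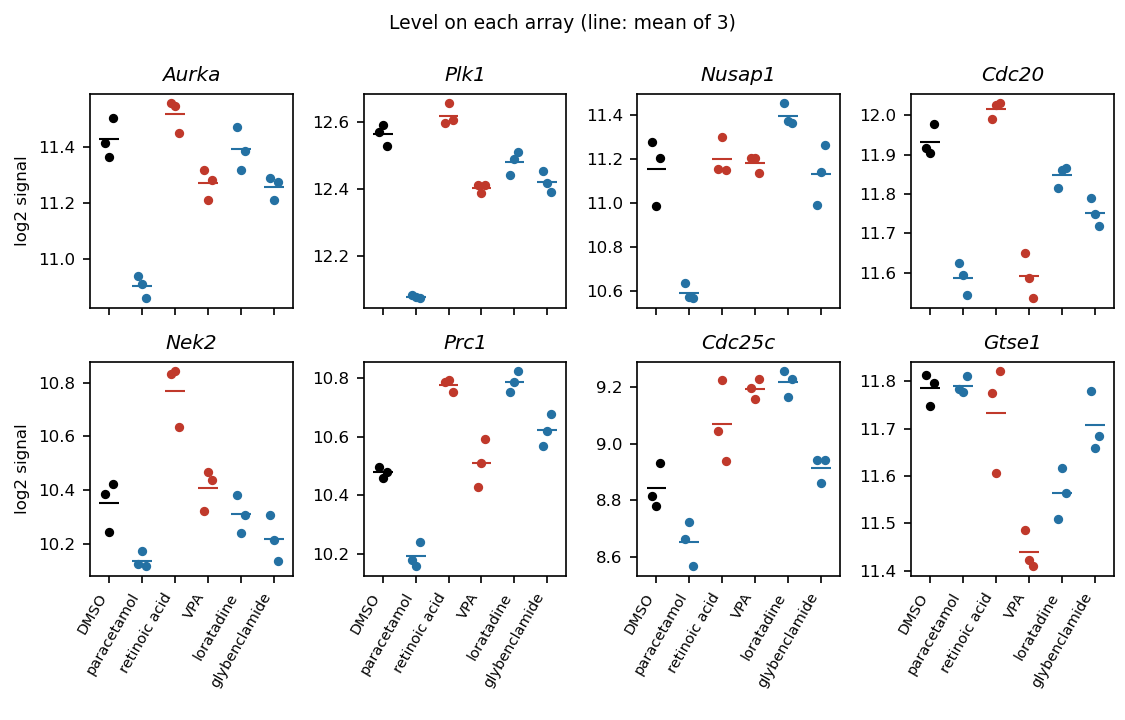
Log2 signal (y axis) of 8 of the genes on each array of DMSO (black) and 5 compounds (x axis; red, teratogens; blue, non-teratogens); lines are means of 3. Aurka, Plk1 and Nusap1 are lowest with paracetamol, Cdc20 is about as low with paracetamol and VPA, Nek2 is highest with retinoic acid, Cdc25c is high with VPA and loratadine, and Gtse1 is lowest with VPA.

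Direct contrasts compared 4 of these compounds without the DMSO arrays, at their different doses. Each p-value was adjusted over all probe sets within its contrast. VPA minus retinoic acid gave 1 gene higher and 17 lower of 41 (18.4% and 14.7% of all probe sets), with Cdc20 lower by 0.43 (95% interval -0.53 to -0.32). Loratadine minus retinoic acid also gave 1 higher and 17 lower (10.9% and 9.69%), with Nek2 at -0.46 (-0.60 to -0.32) and Ttk at -0.42 (-0.59 to -0.26). Both counts leaned on retinoic acid array 2, without which they were 11 and 7 in all. The second also fell to 9 without loratadine array 2 and to 10 without retinoic acid array 1, and retinoic acid minus dexamethazone fell from 14 to 8 without retinoic acid array 2 and to 9 without dexamethazone array 1. VPA minus loratadine gave 2 higher and 6 lower (15.9% and 13.6%): Aurkb (0.28) and Cdc25b (0.25) were higher with VPA and Hmmr (-0.30), Prc1 (-0.28) and Cdc20 (-0.26) lower. The share of the 41 genes that was higher was below that of all probe sets, and the share that was lower was near it. For Cdc25c, raised against DMSO by both, the difference was -0.02 with an interval of -0.15 to 0.10. VPA minus dexamethazone gave 7 higher and 11 lower (21.6% and 14.1%) and loratadine minus dexamethazone 6 higher and 4 lower (20.8% and 19.8%), 17 in all without dexamethazone array 3, an array of low interquartile range. Both shares of the 41 genes in loratadine minus dexamethazone were below those of all probe sets, as was the higher share in VPA minus dexamethazone. Cdc25b was 0.43 higher with VPA than with dexamethazone (0.32 to 0.53).

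The remaining compounds touched few of the 41 genes. With dexamethazone, a glucocorticoid, Ccna2 (12.93, 12.69 and 12.84) rose by 0.17 and Hmmr (10.74, 10.49 and 10.73) by 0.24, and Aurkb (11.59, 11.61 and 11.15) fell by 0.23 and Bub1 (11.63, 11.79 and 11.75) by 0.15, where 1.51% of all probe sets rose and 4.74% fell. Hmmr overlapped DMSO, and for Aurkb the third array alone lay far below the others. Without the 3 arrays of low interquartile range, 3 of the 41 genes fell and none rose: Bub1 was still called, and Ccna2 (0.16, adjusted p = 0.0564), Hmmr (0.20, 0.136) and Aurkb (-0.08, 0.333) were not. The count of 4 was 8 without dexamethazone array 2, 2 without array 3 and 0 without DMSO array 3. With glybenclamide, a sulfonylurea, Kif23 (11.21, 11.16 and 11.18) fell by 0.20, Cdc20 (11.79, 11.75 and 11.72) by 0.18 and Aurka (11.29, 11.21 and 11.27) by 0.17, where 2.75% of all probe sets fell and 6.79% rose. All 3 were below DMSO on every array. So were 13 of the 41 genes in all, a count for which no share over all probe sets was taken. None of the 3 passed without DMSO array 3 or glybenclamide array 3, and 1 passed without glybenclamide array 2. Sulfasalazine raised Cdc25c (9.08, 9.10 and 9.04) by 0.23 and Prc1 (10.75, 10.67 and 10.64) by 0.21 (5.4% of all probe sets rose, 3.5% fell). These genes are a share of the 41 near that of all probe sets that rose. Chlorthalidone raised Prc1 (10.67, 10.74 and 10.76) by 0.25 (1.44% rose, 1.14% fell) and metoclopramide raised it (10.76, 10.72 and 10.73) by 0.26 (0.184% rose, 0.0138% fell). The sulfasalazine count was 0 without DMSO array 1 or 2 or sulfasalazine array 1 or 2, that of chlorthalidone 0 without its array 2 or 3 or DMSO array 2, and that of metoclopramide 0 without any one of the 6 arrays.

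Prc1 was called up with 5 compounds, more often than any other of the 41 genes. The 3 DMSO arrays were close together for it (10.50, 10.46 and 10.48), and DMSO was the second lowest of the 20 groups, above paracetamol alone. The 5 contrasts share those arrays. Against the mean of the other 18 compounds, Prc1 was higher with retinoic acid by 0.17 ± 0.04 (adjusted p = 0.00328) and with loratadine by 0.18 ± 0.04 (0.00136), lower with VPA by 0.11 ± 0.04 (0.045) and lower with paracetamol by 0.45 ± 0.04 (5.54e-11). Cdc25c, called up with 4 compounds, was higher on that scale with loratadine (0.31 ± 0.05), VPA (0.29 ± 0.05) and retinoic acid (0.16 ± 0.05).

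**Figure D5:**
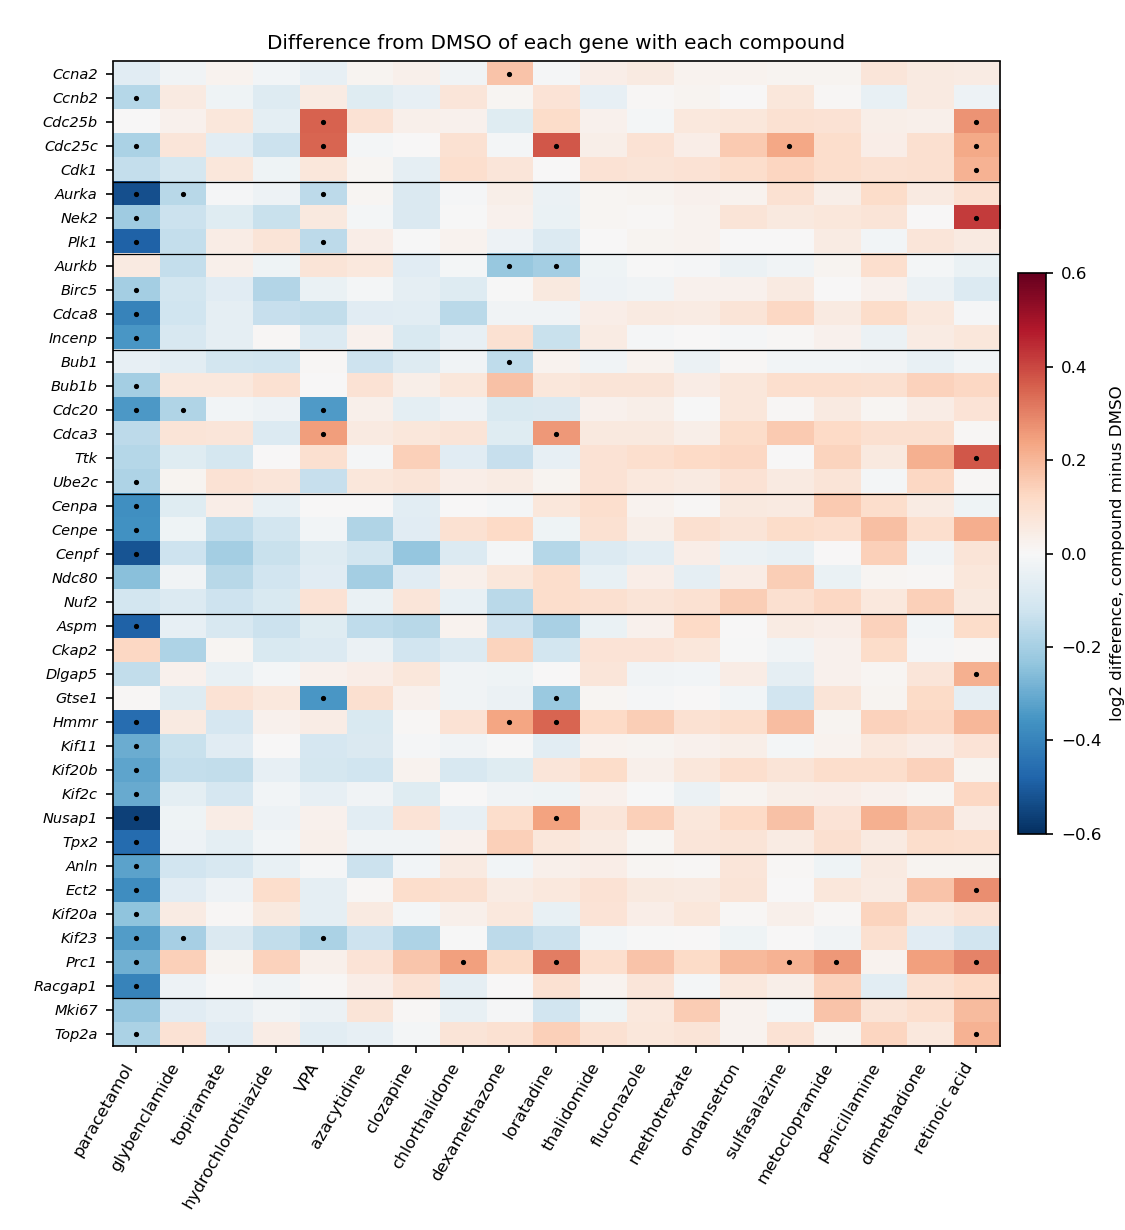
Log2 difference from DMSO (colour) of the 41 genes (rows, grouped by role between black lines) with the 19 compounds (columns, ordered by the mean of the 41 genes); dots mark an adjusted p under 0.05. The paracetamol column holds 28 dots, all falls, the retinoic acid column 9, all rises, and the Prc1 row has rises with 5 compounds.

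For 10 compounds none of the 41 genes was called by limma. With penicillamine, thalidomide, azacytidine, fluconazole, topiramate and methotrexate 0% of all probe sets passed in either direction. At an unadjusted p under 0.05 there were 5 of the 41 genes with penicillamine, 0 with thalidomide, 5 with azacytidine, 2 with fluconazole, 4 with topiramate and 0 with methotrexate. Their genes of smallest p were Kif20a with penicillamine (11.84, 11.97 and 11.83, a difference of 0.14), Cenpa with thalidomide (11.31, 11.28 and 11.18, 0.10), Bub1 with azacytidine (11.81, 11.74 and 11.72, -0.13), Prc1 with fluconazole (10.61, 10.74 and 10.59, 0.17), Cenpf with topiramate (9.61, 9.69 and 9.69, -0.21) and Prc1 with methotrexate (10.55, 10.56 and 10.66, 0.11). Adjusted p-values for these ranged from 0.336 to 0.766. Clozapine (1.1% of all probe sets rose and 0.211% fell) had 3 genes at an unadjusted p under 0.05, hydrochlorothiazide (0.303% and 1.87%) 5, dimethadione (0.101% and 0.0184%) 8 and ondansetron (0.289% and 0.0413%) 3. Kif23 came nearest with clozapine (11.20, 11.18 and 11.22; -0.19, adjusted p = 0.0952) and hydrochlorothiazide (11.24, 11.15 and 11.32; -0.15, 0.118), and Prc1 with dimethadione (10.72, 10.74 and 10.72; 0.25, 0.084) and ondansetron (10.66, 10.70 and 10.66; 0.20, 0.12). Leaving out hydrochlorothiazide array 3 gave 3 called genes for that compound. The percentages of all probe sets in this paragraph are at the adjusted threshold. Shares of all probe sets at an unadjusted p under 0.05 are not given, so the unadjusted counts have no background beside them.

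Chlorthalidone and hydrochlorothiazide, both sulfonamide diuretics used at 1 mM, were compared as a pair of related compounds at a matched dose. In their direct contrast 2 of the 41 genes were higher with chlorthalidone and none lower. Over all probe sets 4.47% were higher, a share near that of the 41 genes, and 0.858% lower. Cdc25c was 0.22 higher (95% interval 0.10 to 0.35, adjusted p = 0.0265) and Ccnb2 0.15 higher (0.06 to 0.24, 0.0432). Prc1, called against DMSO with chlorthalidone alone of the pair, differed by 0.11 with an interval of -0.01 to 0.23. Neither call was left without hydrochlorothiazide arrays 1 and 2 and the other array of low interquartile range, or without any single chlorthalidone array or hydrochlorothiazide array 1 or 2.

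No gene passed the test between the study's classes. Over compound means, 10 teratogens against 9 non-teratogens, none of the 41 genes and 0% of all probe sets passed. The smallest adjusted p of the 41 was 0.976. At an unadjusted p under 0.05 there were 3 of the 41, and 4.38% of all probe sets. The difference was positive for 36 of the 41, with a median of 0.05 against 0.01 over all probe sets. Without paracetamol it was positive for 28, with a median of 0.01 (0.01 over all probe sets).

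The 41 genes also moved together from group to group. Across the 20 group means the median correlation between pairs of the genes was 0.55, and 0.15 between pairs of the 7227 genes at least as bright as the dimmest of them. Across the 19 groups without paracetamol it was 0.31 against 0.16. Within groups, for deviations of the 60 arrays from their group mean, it was 0.25 against 0.20. Arrays of one treatment thus differed little more in step for the 41 genes than for those 7227. That set has a lower limit of brightness and is not matched to the 41 genes. These correlations are descriptions. Genes share arrays and are not independent. By their median correlation with the others over group means, Kif2c (0.76), Kif11 (0.75) and Aurka (0.75) had the highest values. Aurkb (-0.09), Ckap2 (-0.03), Gtse1 (-0.01) and Cdc25b (0.14) had the lowest values. These values include the paracetamol group, so they are not independent of its result.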

How the data were processed

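The values are the log2 signals that the authors deposited for each probe set and array; they had been made with RMA, per the submitters' processing notes (version, array design and build: not given in the sources used here). They were used without further normalisation. Of 35556 probe sets, 21789 carry 1 gene symbol in GEO's platform annotation, 1621 several and 12146 none; those with 1 symbol were tested. One limma model (limma 3.58.1, R 4.3.3) with a mean per group was fitted to all 60 arrays (40 residual degrees of freedom), so that groups of 3 share 1 estimate of the spread, and p-values were adjusted by Benjamini-Hochberg within each contrast; called means an adjusted p under 0.05. The fit was tested on simulated data in which each probe set varied independently, whereas genes on the real arrays varied partly together. Classes were compared over 19 compound means. The genes, their roles, the other lists, the compounds of the direct contrasts and the rule for named genes (the core genes Cdk1, Plk1, Aurka, Cdc20, Top2a and Mki67, the 4 that rose and the 4 that fell most per compound, each called gene where under 5 were called, the gene of smallest p where none was, and 3 per other list) were chosen with earlier results of these data known. RMA and arrays compress changes, and their number limits the precision. Promoters are RefSeq's, GRCm38.p6. Alternatives are given in the closing section.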

Additional observations from a re-analysis of the deposited data

How the results depend on the processing

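Counts are of the 41 genes called by limma. Paracetamol, VPA minus retinoic acid, VPA minus dexamethazone, VPA minus loratadine and VPA kept counts within 1.5 times under every alternative that did not leave out an array, and 19 of the 28 genes that fell with paracetamol, 2 of 9 with retinoic acid (Nek2 and Prc1), 5 of 8 with VPA and 6 of 7 with loratadine were called under all 16 alternatives. With the mean of the other 18 compounds in place of DMSO there were 18 for retinoic acid (9 against DMSO), 12 for dexamethazone (4; 13.6% of all probe sets rose and 20.7% fell), 7 for penicillamine (0; 9.05% and 2.44%), 7 for hydrochlorothiazide (0; 19.6% and 19.4%), 6 for topiramate (0; 6.91% and 8.82%), 6 for glybenclamide (3; 6.77% and 3.08%) and 0 for chlorthalidone (1; 1.62% and 3.06%). The hydrochlorothiazide and dexamethazone counts are shares of the 41 genes below those of all probe sets. In a model of the 6 arrays of a contrast there were 2 for retinoic acid, 1 for sulfasalazine and 0 for dexamethazone, glybenclamide, chlorthalidone and metoclopramide. Quantile normalisation gave 11 for loratadine (7), 7 for glybenclamide, 1 for clozapine and 1 for hydrochlorothiazide (0 each), 0 for metoclopramide and 0 for sulfasalazine, and, in direct contrasts, 16 for loratadine minus dexamethazone (10), 9 for retinoic acid minus dexamethazone (14) and 1 for chlorthalidone minus hydrochlorothiazide (2). Without the 3 arrays of lowest interquartile range, a setting chosen after seeing the data, there were 17 for loratadine minus dexamethazone, 0 for chlorthalidone minus hydrochlorothiazide, 6 for glybenclamide, 1 for clozapine and 1 for dimethadione (0). The interquartile range as a covariate gave 5 for glybenclamide, 1 for dexamethazone, 0 for metoclopramide and 0 for sulfasalazine. Leaving out probe sets under the median gave 1 for clozapine and 1 for dimethadione, the letter b of some titles as a covariate gave 1 for clozapine, and testing all probe sets of the table gave 0 for metoclopramide. The cause of these differences was not tested. Also among the 16 alternatives was the dimmest probe set per gene. It repeats the main fit for every gene but Top2a, whose second probe set has a mean of 5.01.

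Leaving out 1 array at a time gave 21 to 29 for paracetamol, 5 to 12 for retinoic acid, 6 to 7 for VPA, 6 to 7 for loratadine, 0 to 8 for dexamethazone, 0 to 3 for glybenclamide, 0 to 3 for hydrochlorothiazide, 0 to 2 for sulfasalazine, 0 to 1 for chlorthalidone and 0 for metoclopramide. In direct contrasts it gave 11 to 20 for VPA minus retinoic acid, 7 to 17 for loratadine minus retinoic acid, 14 to 18 for VPA minus dexamethazone, 6 to 7 for VPA minus loratadine, 10 to 17 for loratadine minus dexamethazone, 8 to 15 for retinoic acid minus dexamethazone and 0 to 3 for chlorthalidone minus hydrochlorothiazide. Differences that changed sign were near 0 and never called: Cdk1 with loratadine (0.001 with the letter b, -0.05 to 0.036 without single arrays), Aurka with loratadine (-0.075 to 0.003 without single arrays) and Mki67 with VPA (0.002 after quantile normalisation, -0.093 to 0.034 without single arrays). No paired analysis was possible because the replicate numbers are only names. The 3 arrays per group limit the precision.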
